A study of Homo sapiens with 6 samples.

Results

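The genes described here are the 10 that encode the NF-κB subunits (NFKB1, NFKB2, REL, RELA and RELB), their IκB inhibitors (NFKBIA, NFKBIB and NFKBIE), the deubiquitinase A20 (TNFAIP3) and the IκB kinase β subunit (IKBKB). They were taken by symbol from a table of 61852 genes, and all 10 were in it. The 6 libraries are poly(A)-selected RNA-seq of MEG-01, a human leukaemia line of megakaryoblasts long kept in culture. In 3 of them the cells had been transduced with the pLKO.1 vector (control), and in the other 3 with sh2-MELK, a short hairpin RNA against the kinase MELK (knockdown). All 6 share the cell line and the batch name in the labels, and all were transduced, with the construct differing between the groups. Only 1 hairpin was used, so an effect of losing MELK cannot be told apart from any other effect of that hairpin. The series' design text calls the replicates independent and biological.

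NF-κB transcription factors are dimers of Rel-homology proteins. RELA, RELB and REL carry a transactivation domain, while NFKB1 and NFKB2 encode the precursors p105 and p100, which are processed to p50 and p52. IκB proteins hold dimers in the cytoplasm until the IκB kinase complex phosphorylates them and they are degraded. NFKBIA, NFKBIE, TNFAIP3, NFKB2, RELB and REL are themselves known targets of NF-κB, so their RNA is often read as a feedback arm of the pathway, whereas processing, phosphorylation and nuclear entry leave no direct trace in RNA counts.

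The DNA element these dimers bind, the κB consensus, is found close to the start sites of most of these genes. It was searched on both strands in RefSeq promoter windows on GRCh38.p14, which reach from 250 bases before a start to 50 after it. Of the 10 genes, 7 matched the promoter table by symbol, with 12 windows between them, and 6 of these 7 genes had at least 1 match. Among all 27305 genes with a window, 7.09% did. One window of REL, of NFKB2 and of NFKBIB holds matches on both strands that overlap each other, and of these 1 is printed. The sequences below are shown because they fit the consensus that the family binds. Each is given on the strand of its gene with the match in capitals, and the NFKBIA and TNFAIP3 matches fit the consensus when read on the opposite strand. The NFKBIA and NFKB1 matches lie before the annotated gene, and the NFKBIB match lies in an intron. Those of TNFAIP3, REL and the first 2 of NFKB2 lie in untranslated exon sequence, in GENCODE 29.
NFKBIA, chr14:35404811-35404840, minus strand: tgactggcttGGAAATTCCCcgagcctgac
NFKBIB, chr19:38899931-38899960, plus strand: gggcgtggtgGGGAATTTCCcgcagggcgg
NFKB1, chr4:102501300-102501329, plus strand: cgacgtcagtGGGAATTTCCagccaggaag
NFKB2, chr10:102394461-102394490, plus strand: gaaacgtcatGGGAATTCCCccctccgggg
NFKB2, chr10:102394490-102394519, plus strand: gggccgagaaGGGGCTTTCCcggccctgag
REL, chr2:60881517-60881546, plus strand: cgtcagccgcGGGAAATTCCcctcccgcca
TNFAIP3, chr6:137867182-137867211, plus strand: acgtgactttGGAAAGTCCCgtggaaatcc
TNFAIP3, chr6:137867194-137867223, plus strand: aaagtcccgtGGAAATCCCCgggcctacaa
The NFKBIA match, read on the opposite strand, has the same 10 bases as those of NFKB1 and NFKBIB. TNFAIP3 carries its 2 matches close together, at 67 and 55 bases before the start. A further start of NFKB2 has 2 more matches, 1 in an intron and 1 in untranslated exon sequence. No match was found in the 2 windows of RELA. A match describes the sequence and does not show binding.

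The 6 libraries held between 18945176 and 21711313 counts each. Low values in the table need care. In 35797 genes (57.9%) every library held 0, 1, 2, 10 or 100, at close to equal frequency, as if 1 of these 5 numbers had been added to each value. An added 100 is a sizeable part of the value of the less abundant members, so results are also given with that number modelled. Megakaryocyte markers were present (summed level of 9 genes 2400 to 2520 CPM, counts scaled by TMM-adjusted library size, in the control and 1380 to 1450 CPM in the knockdown), although the markers GP1BB and PF4 held only the 5 added values. Lymphocyte, fibroblast and endothelial, and epithelial markers summed to at most 23 CPM in any library. Erythroid markers summed to 491 to 517 CPM in the control and 166 to 181 in the knockdown, and granulocyte and monocyte markers to 32.7 to 39.5 and 32.8 to 37.3 CPM. Their part in the results below was not tested.

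MELK, the targeted gene, stood at 10.7, 10.7 and 11.6 CPM in control libraries and at 0.812, 6.16 and 1.38 CPM in knockdown libraries, which do not overlap. Its log2 fold change was -1.98 ± 0.69 (SE) and missed the threshold (edgeR quasi-likelihood test, adjusted p = 0.104), and without knockdown replicate 2 it was -3.32 (adjusted p = 0.00271). With the added number modelled it was -3.39 (95% interval -3.87 to -2.98).

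Within the family, MEG-01 cells held RNA of the RELA, NFKB2 and RELB subunits and of all 3 inhibitors, and almost none of REL. Levels between genes were compared as RPKM, counts scaled by exon length and by TMM-adjusted library size, with the added number modelled. In the control RELA stood highest at 32.3 RPKM (95% interval 30.7 to 34.1), followed by NFKB2 at 22.3 (20.8 to 23.9), NFKBIB at 20.7 (19 to 22.4) and NFKBIA at 19.1 (17.5 to 20.4). The intervals of NFKB2 and NFKBIB overlap, and so do those of NFKBIB and NFKBIA. RELB followed at 14.9 RPKM (13.7 to 15.9), NFKBIE at 12.1 (10.9 to 13.5), NFKB1 at 7.16 (6.7 to 7.78) and IKBKB at 4.18 (3.85 to 4.47). TNFAIP3 was at 1.78 RPKM (1.61 to 1.96) and REL at 0.0598 (0.0406 to 0.0824). From NFKBIA downward no 2 neighbours in this order had overlapping intervals. In the knockdown the order was the same, except that NFKBIB, at 25.4 RPKM (23.5 to 27.1), now stood above NFKB2, at 17.1 (16 to 18.3). There the interval of NFKBIA (12.4 to 14.7) overlapped that of RELB (10.8 to 12.7). The interval of RELB also overlapped that of NFKBIE (9.45 to 11.7). Taken per longest transcript instead of per exon union, NFKBIA stood above NFKBIB in the control.

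**Figure D1:**
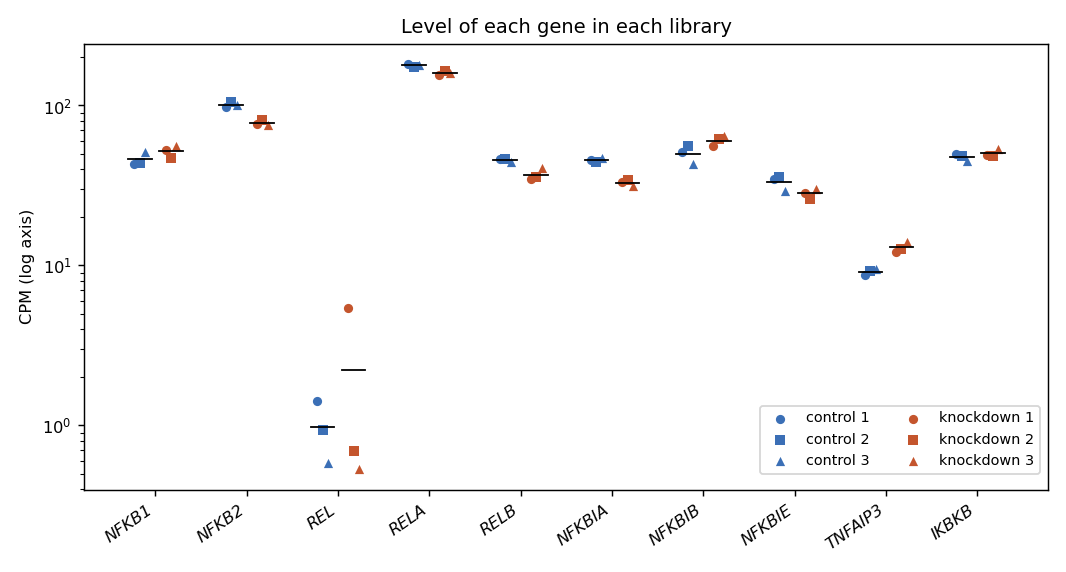
Level of each of the 10 genes in CPM (log axis) in the 3 control (blue) and 3 knockdown (orange) libraries; symbols give the replicate number and black lines the group means. The groups do not overlap for NFKB2, RELA, RELB, NFKBIA and TNFAIP3, and the single high REL point is the knockdown replicate 1 value of 5.43 CPM.

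The comparison of the knockdown with the control asks which of these genes moved with the hairpin. NFKBIA fell by 28.3%, NFKB2 fell by 22.9%, RELB fell by 19.2% and RELA fell by 9.79%, and no gene of the 10 rose past the threshold. The test was edgeR's quasi-likelihood test over 28303 genes with Benjamini-Hochberg adjusted p below 0.05. It called 4 of the 10 genes, all lower, against a background of 16.5% of all genes tested in either direction, 8.43% lower and 8.12% higher. Abundant genes were called far more often. Run on the 5038 genes that average 500 counts or more, the same test called 77% (38.9% lower and 38.1% higher). It called 5 of the 8 members in that set (4 lower, 1 higher), a share not above that background. The median log2 fold change was -0.04 over the 10 genes and 0.02 over all genes tested. In bulk RNA, fewer cells of a kind and less RNA per cell cannot be told apart. The groups did not overlap in 5 of the 10 genes, against 30.7% of all genes tested and 79.2% of the more abundant set.

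Of the subunits, NFKB2 (chromosome 10, 102394110 to 102402529), the p100 precursor of the non-canonical arm, had the widest called change. It had 97.7, 105 and 101 CPM in the control libraries and 76.6, 81.2 and 75.9 CPM in the knockdown libraries. Every knockdown library lay below every control library. The log2 fold change was -0.38 ± 0.05 (SE, edgeR adjusted p = 0.000536), and -0.38 (95% interval -0.51 to -0.25) with the added number modelled. NFKB2 was called in each of the 6 fits that left out 1 library. RELB (chromosome 19, 45001430 to 45038198), the usual partner of p52, had 46.5, 46.4 and 44.5 CPM in the control and 34.5, 35.6 and 40.9 CPM in the knockdown. The groups did not overlap, although knockdown replicate 3 came closer to the control than the other 2. RELB fell by 0.31 ± 0.08 on the log2 scale (SE, edgeR adjusted p = 0.0248). Leaving out any 1 library other than knockdown replicate 3 ended the call (adjusted p up to 0.106), and without that library the adjusted p was 0.00623. With the GC content and length trend described below removed, NFKB2 was at -0.11 and RELB at 0.04, and neither passed.

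RELA (chromosome 11, 65653596 to 65663094), the transactivating subunit of the canonical dimer, had 181, 173 and 179 CPM in the control and 156, 165 and 160 CPM in the knockdown. The control libraries were all higher, by a small margin. It fell by 0.15 ± 0.04 on the log2 scale (SE, edgeR adjusted p = 0.0219). The call was lost without control replicate 1, control replicate 3, knockdown replicate 1 or knockdown replicate 3 (adjusted p up to 0.0941), and with the added number modelled (adjusted p = 0.0832). It was also lost with the GC content and length trend removed, where RELA was at 0.02. NFKB1 (chromosome 4, 102501329 to 102617302), the p105 precursor, had 43.3, 43.8 and 51.4 CPM in the control and 52.4, 47.1 and 56.1 CPM in the knockdown. The groups overlapped, since control replicate 3 exceeded knockdown replicate 2. Its log2 fold change of 0.17 ± 0.09 (SE) missed the threshold (edgeR adjusted p = 0.323), with a modelled interval of 0.00 to 0.33.

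REL (chromosome 2, 60881521 to 60931610), which encodes c-Rel of lymphoid cells, had deposited values of 29, 18 and 12 in control libraries, against 107, 14 and 10 in knockdown libraries. A single library, knockdown replicate 1, was high, and its value exceeds 100, the largest added number. The edgeR log2 fold change was 1.17 ± 1.46 (SE, adjusted p = 0.772). With the added number modelled it was -0.74 (95% interval -1.87 to 0.04), so the sign depends on how that 1 value is read. The modelled reads were 15.6 per library in the control (10.6 to 21.5) and 9.32 in the knockdown (4.57 to 13.7). An annotated non-coding transcript, AC010733.2, shares 43.3% of the exon bases of REL on the same strand. Whether reads there were counted for REL was not tested.

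Summed per exon length, the 5 subunits came to 77.2 to 78.2 RPKM in the control libraries and 65.9 to 68.6 RPKM in the knockdown libraries, from the deposited values. With the GC content and length trend described below removed, RELA was at 0.02, RELB at 0.04, NFKB2 at -0.11 and NFKB1 at 0.12. None of these passed, and the sum was not recomputed in that fit. In the deposited values the makeup of the sum differed modestly. NFKB2 held 28.2% to 30.2% of the sum in the control and 24.7% to 26.8% in the knockdown, while NFKB1 held 8.95% to 10.5% and 11.1% to 13.1%. The share of RELA was 41% to 42.8% in the control and 42.6% to 44.7% in the knockdown, and that of RELB was 18.7% to 19.9% and 17.3% to 19.6%. Ranges of the 2 groups overlapped for RELA and RELB but not for NFKB1 and NFKB2. A share also moves when the other subunits move, and in CPM the groups overlapped for NFKB1. Of the abundant genes, 79.2% did not overlap in CPM, and no such background was computed for shares.

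Of the 3 IκB genes, 1 fell and the other 2 missed the threshold. NFKBIA (chromosome 14, 35401511 to 35404749), which encodes IκBα, the fast-turning feedback inhibitor, had 45.8, 44.4 and 47.2 CPM in the control and 33, 34 and 31.5 CPM in the knockdown. The spread within each group was small against the gap between them. NFKBIA fell by 0.48 ± 0.06 on the log2 scale (SE, edgeR adjusted p = 0.000551), the widest of the 4 called decreases, and was called in all 16 alternative fits. If 100 were taken from every control value and nothing from the knockdown, the change would still be -0.31. NFKBIB (chromosome 19, 38899700 to 38908893), encoding IκBβ, had 50.9, 55.6 and 43.1 CPM in the control and 55.5, 61.4 and 64.1 CPM in the knockdown. The groups met at 1 point, where control replicate 2 lay just above knockdown replicate 1. Its log2 fold change was 0.27 ± 0.10 (SE, edgeR adjusted p = 0.11) and missed the threshold. With the added number modelled it was 0.30 (95% interval 0.15 to 0.45, adjusted p = 0.00281), and in the fit of abundant genes it was 0.29 (edgeR adjusted p = 0.00797). NFKBIB shares 40 exon bases with the opposite-strand gene SIRT2, whose counts went the other way (-0.59 ± 0.04, SE, edgeR adjusted p = 1.59e-05).

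NFKBIE (chromosome 6, 44258166 to 44265788), encoding IκBε, had 34.9, 35.8 and 29 CPM in the control and 28.2, 26.2 and 30.2 CPM in the knockdown. Control replicate 3 lay within the knockdown range, and the log2 fold change of -0.24 ± 0.10 (SE) missed the threshold (edgeR adjusted p = 0.196). The modelled interval ran from -0.43 to 0.03.

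TNFAIP3 (chromosome 6, 137867188 to 137883312) encodes A20, a ubiquitin-editing enzyme that shuts off signalling upstream of the IκB kinases. It had 8.77, 9.19 and 9.47 CPM in the control and 12.2, 12.6 and 14.1 CPM in the knockdown. All 3 knockdown libraries were higher than all 3 control libraries. The log2 fold change of 0.50 ± 0.15 (SE) missed the threshold (edgeR adjusted p = 0.062), and with the added number modelled it was 0.51 (95% interval 0.31 to 0.70, adjusted p = 0.00643). Its values are low enough (177 to 266 counts) that the extreme assignments of the added number would give anything from -0.22 to 1.64. IKBKB, the catalytic kinase subunit of the canonical pathway, had 49.7, 48.6 and 45 CPM in the control and 48.9, 48.1 and 53.2 CPM in the knockdown. The groups overlapped, the log2 fold change was 0.07 ± 0.06 (SE, edgeR adjusted p = 0.61), and the modelled interval was -0.09 to 0.24.

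Ratios of 2 genes within a library do not depend on how libraries are scaled, and 8 were computed. The ratio of NFKBIB to NFKBIA counts was 1.11, 1.25 and 0.913 in control libraries, against 1.68, 1.8 and 2.04 in knockdown libraries. Both inhibitors had similar counts in the control, and in each knockdown library NFKBIB exceeded NFKBIA. The ratio of NFKBIA to RELA, a subunit its protein retains, was 0.257 ± 0.00499 in the control and 0.205 ± 0.00693 in the knockdown (SD, n = 3). The ratio of IKBKB to NFKBIA went from 1.04 ± 0.0787 to 1.53 ± 0.143 (SD, n = 3), and that of TNFAIP3 to NFKBIA from 0.2 ± 0.00761 to 0.396 ± 0.0449. Of the precursors, NFKB2 to NFKB1 went from 2.2 ± 0.223 to 1.51 ± 0.19 (SD, n = 3). For these 5 ratios the groups did not overlap. All of them but NFKB2 to NFKB1 contain NFKBIA, so its fall enters each of those. Single abundant genes did not overlap in 79.2% of cases, and the share for other pairs was not computed. The TNFAIP3 values are within reach of the added number. For the other 3 ratios the groups did overlap. These were RELB to RELA, at 0.258 ± 0.00976 and 0.231 ± 0.0222, NFKBIE to NFKBIA, at 0.728 ± 0.0997 and 0.861 ± 0.0953, and NFKB2 to RELB, at 2.21 ± 0.0949 and 2.12 ± 0.229 (SD, n = 3, control first). With the GC content and length trend described next removed, the log2 difference of NFKB2 to NFKB1 went from -0.55 to -0.24 and that of NFKBIB to NFKBIA from 0.76 to 0.99. No test was made of the ratios, whose pairs were picked with the values known.

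**Figure D2:**
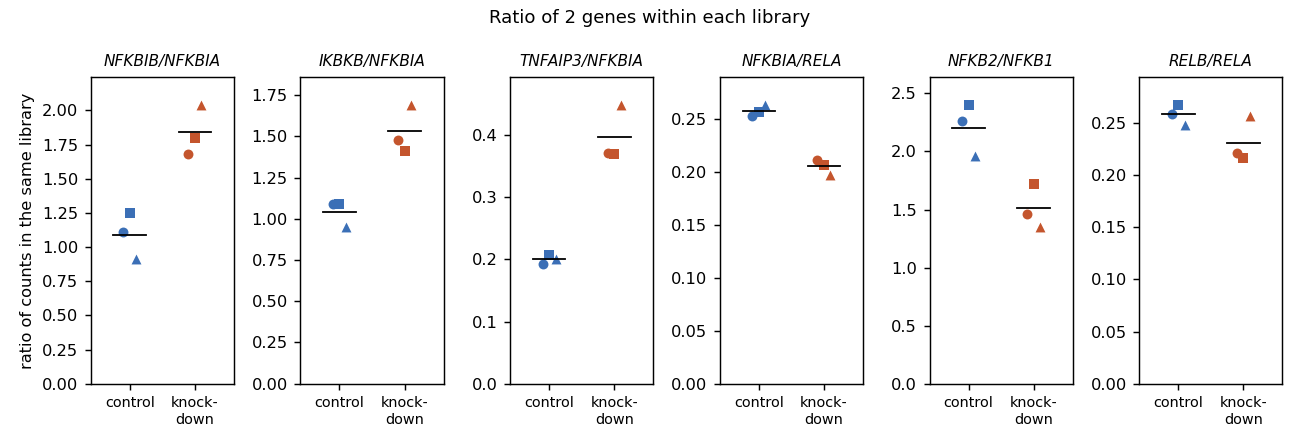
Ratio of deposited counts of 2 genes in the same library (linear axes from 0), for 6 of the 8 pairs computed; points are libraries, symbols the replicate number, black lines the group means. NFKBIB to NFKBIA goes from a mean of 1.09 to 1.84, whereas RELB to RELA overlaps between groups.

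Base composition moved with the comparison and bears on several of these genes. Over 5031 of the abundant genes, GC-rich genes tended to have the lower log2 fold changes (Spearman rho -0.386, a description over genes, which are not independent). The longest transcripts of RELB, NFKB2, NFKBIE and NFKBIB have a GC content of 65.4%, 62.4%, 61% and 60.5%, against 57.1% for RELA, 53.1% for NFKBIA and 50.1% for NFKB1. With each library's trend in GC content and length removed, NFKBIA was at -0.45 ± 0.08 (SE, edgeR adjusted p = 4.11e-05) and NFKBIB at 0.54 ± 0.08 (adjusted p = 1.70e-05). NFKB2 was at -0.11 ± 0.05 (edgeR adjusted p = 0.0566), RELB at 0.04 ± 0.08 (adjusted p = 0.661) and RELA at 0.02 ± 0.03 (adjusted p = 0.514), so the calls on the 3 subunits were lost. That fit called 76.5% of the genes it tested (40.1% higher and 36.5% lower) and 2 of the 8 members in it. Whether the trend arose in the cells or in library preparation was not tested.

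**Figure D3:**
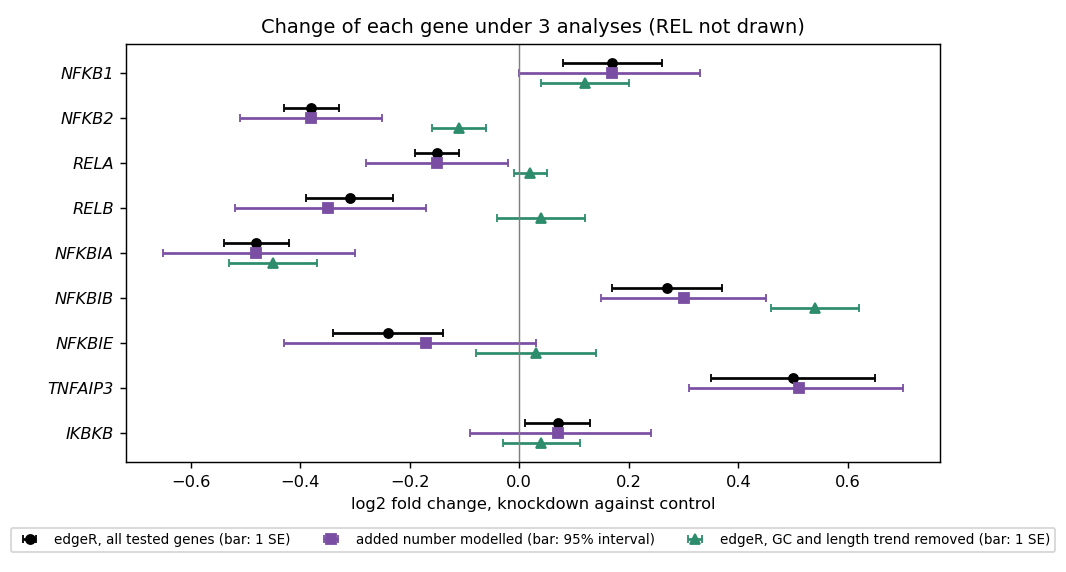
Log2 fold change (knockdown against control) of 9 of the 10 genes under 3 analyses; black circles are edgeR over all tested genes and green triangles edgeR with the GC and length trend removed (bars 1 SE), and purple squares are the model of the added number (bars 95% interval). NFKBIA lies between -0.48 and -0.45 in all 3, NFKBIB between 0.27 and 0.54, and NFKB2, RELA and RELB between -0.11 and 0.04 once the GC trend is removed; TNFAIP3 has too few counts for that fit.

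Around the family, the pathway's other components were read from 5 lists, whose counts stand against the 16.5% of all genes tested that were called (8.12% higher and 8.43% lower) and the 77% of abundant ones. Of 12 kinases and their scaffolds tested, 1 rose and 2 fell. TAB1, an activator subunit of the kinase TAK1, fell from 55.9 ± 1.8 to 40.8 ± 3.77 CPM (SD, n = 3). Its log2 fold change was -0.45 ± 0.07 (SE, adjusted p = 0.0026 in edgeR), and -0.21 with the GC and length trend removed. The other 2 were the TAK1 gene MAP3K7, which rose by 0.56 ± 0.14, and the IκB kinase relative IKBKE, which fell by 1.18 ± 0.25. They have means of 318 and 230.2 counts and were named after their values were seen. Modelling the added number put MAP3K7 at 0.43 and IKBKE at -1.59. The median over the list was -0.09, where that of every gene tested was 0.02.

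Of 25 adaptors and ubiquitin ligases tested, 5 rose and 5 fell, against 16.5% of all genes tested, with a median of -0.12. In the fit of abundant genes 8 of 10 were called, against 77%. Both accessory subunits of the linear ubiquitin assembly complex fell, RBCK1 from 67.8 ± 0.544 to 41.1 ± 4.31 CPM and SHARPIN from 113 ± 6.86 to 73.4 ± 2.79 CPM (SD, n = 3). Their log2 fold changes were -0.72 ± 0.07 and -0.62 ± 0.05 (SE), and -0.42 and -0.20 with the GC and length trend removed. The gene of its catalytic subunit, RNF31, held deposited values of 112, 18 and 117 in control libraries, against 17, 6 and 12 in knockdown libraries (edgeR adjusted p = 0.33), within reach of the added number. The adaptor MYD88 fell by 0.34 ± 0.09. The ubiquitin-conjugating enzyme UBE2N rose by 0.50 ± 0.06, RIPK1 by 0.49 ± 0.13 and IRAK1 by 0.18 ± 0.05 (SE, all edgeR adjusted p of 0.0435 or less). With the GC and length trend removed UBE2N was at 0.24, RIPK1 at 0.43 and IRAK1 at 0.44. The widest of the 10 called changes was in TRAF1, a signalling adaptor induced by NF-κB, with 158, 78 and 87 counts in control libraries, against 399, 406 and 414 in knockdown libraries (1.96 ± 0.25, SE, edgeR adjusted p = 0.000768). The other 3 called genes were TRAF2 (-0.30 ± 0.08), TRAF3 (-0.31 ± 0.08) and CUL1 (0.62 ± 0.14). With the trend removed TRAF2 was at -0.02 and TRAF3 at -0.18. Modelling the added number put TRAF1 at 2.54, CUL1 at 0.73, TRAF2 at -0.31 and TRAF3 at -0.31. These 4 genes were named after their values were seen.

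Of 18 atypical IκB genes and brakes tested, 4 rose and 2 fell, against 16.5% of all genes tested, with a median of 0.07. In the fit of abundant genes 2 of 5 rose and 1 fell, against 77% called. RNF11, a partner of A20, rose from 56.1 ± 6.81 to 191 ± 6.78 CPM (SD, n = 3), or by 1.77 ± 0.08 (SE, edgeR adjusted p = 2.51e-06). TNIP1, the A20-binding inhibitor ABIN1, fell from 526 ± 7.48 to 323 ± 12.7 CPM, a log2 change of -0.71 ± 0.03 (adjusted p = 3.25e-06, edgeR). TRAFD1 rose by 0.34 ± 0.05. The other 3 called genes had means under 500 counts and were named after their values were seen. The atypical IκB gene BCL3 fell by 0.48 ± 0.11, while the deubiquitinase gene CYLD rose by 0.76 ± 0.21 and COMMD1 rose by 0.56 ± 0.11. Modelling the added number put BCL3 at -0.47, CYLD at 1.28 and COMMD1 at 0.56.

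Of 18 ligand and receptor genes tested, 2 rose and 2 fell, against 16.5% of all genes tested, with a median of -0.00. In the fit of abundant genes 2 of 4 rose and 2 fell, against 77% called. The 2 receptors for tumour necrosis factor changed in opposite directions. TNFRSF1A fell from 130 ± 3.49 to 81.6 ± 6.67 CPM (SD, n = 3), at -0.67 ± 0.06 on the log2 scale (SE, adjusted p = 8.40e-05 in edgeR), and TNFRSF1B rose from 24.6 ± 0.367 to 39.2 ± 2.81 CPM, at 0.67 ± 0.08 (adjusted p = 0.000302). LTBR, a receptor that feeds the non-canonical arm, rose by 0.18 ± 0.05 and was at 0.29 with the GC and length trend removed. The other called gene, CD40, fell by 1.06 ± 0.23 and was named after its values were seen. Modelling the added number put CD40 at -1.25. The ligand gene IL1B had 2292, 2339 and 2471 counts in control libraries, against 1803, 2229 and 1834 in knockdown libraries, which missed the threshold (-0.24 ± 0.07, edgeR adjusted p = 0.0544). It passed with the added number modelled (-0.25, adjusted p = 0.00268) and with the GC and length trend removed (-0.49, edgeR adjusted p = 1.30e-07). TNF held no value above 105 counts, within reach of the added number.

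Of 32 target genes tested, 5 rose and 5 fell, against 16.5% of all genes tested, with a median of -0.03. In the fit of abundant genes 3 of 9 rose and 4 fell, against 77% called. The chemokine CXCL8 rose from 21.8 ± 6.44 to 51.3 ± 2.47 CPM (SD, n = 3), or by 1.24 ± 0.19 (SE, edgeR adjusted p = 0.00182), and was at 0.63 with the GC and length trend removed. The immediate-early gene IER3 rose by 1.03 ± 0.08 and the syndecan SDC4 by 0.67 ± 0.07. The survival gene BCL2L1 fell from 435 ± 3.68 to 259 ± 14.4 CPM, a log2 change of -0.75 ± 0.04 (edgeR adjusted p = 6.02e-06). The transcription factor IRF1 (-0.67 ± 0.08) and the growth factor CSF1 (-0.39 ± 0.04) also fell, and CSF1 was at -0.18 with that trend removed. The other 4 called genes had means under 500 counts and were named after their values were seen. CCL2 rose by 1.70 ± 0.12 and CXCL2 by 1.80 ± 0.35, while PLAU fell by 1.20 ± 0.17 and CD83 by 0.47 ± 0.08. Modelling the added number put CCL2 at 1.72, CXCL2 at 1.31, PLAU at -0.98 and CD83 at -0.47. With the added number modelled, 11 targets were higher and 7 lower of 32, against 31.7% of all genes tested. A κB match lay in a promoter window of 15 of the 29 targets that matched the promoter table, against 7.09% of all genes with a window. The list was picked as NF-κB targets, and matches were not compared between called and uncalled targets.

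**Figure D4:**
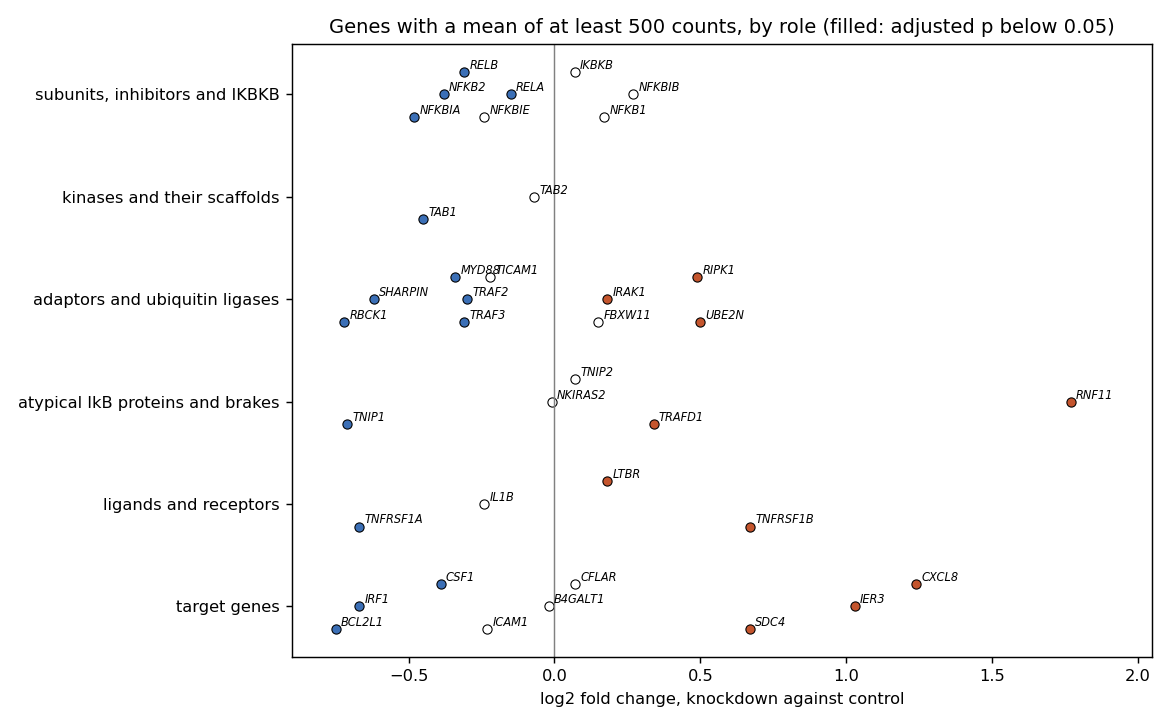
Log2 fold change (knockdown against control, edgeR) of the abundant genes (mean of 500 counts or more), in rows by role; orange points rose and blue points fell at adjusted p below 0.05, open points did not pass. The rows of adaptors, brakes, receptors and targets hold both rising and falling genes, and among the genes drawn the widest change is RNF11 at 1.77.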

How the data were processed

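RNA-seq libraries of 3 control and 3 knockdown cultures of MEG-01 cells were compared. The authors deposited gene counts as whole numbers in a single table, called raw per the file headers. GRCh38 is the build, and STAR, HTSeq, fastp, FastQC, DESeq2 and R 4.3.3 are the tools that appear, without stated roles, per the submitters' processing notes. How reads were counted, strand included, is not given in the sources used here. Symbols came from a table of gene names (61757 of 61852 IDs matched) and coordinates, exon lengths and GC content from GENCODE 29.

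The test was run in edgeR 4.0.16 under R 4.3.3 (TMM, filterByExpr with a minimum count of 10, robust quasi-likelihood F-test, no block) over all genes, and p-values were adjusted by Benjamini-Hochberg. The filter let all 10 members in. CPM and RPKM use TMM-scaled library sizes. Standard errors are the log2 fold change divided by the root of the F statistic. In the second model reads were negative binomial and 0, 1, 2, 10 or 100 was added with equal chance. It used 1 dispersion for all genes (0.00293), a likelihood-ratio test and 95% profile intervals. Its p-values and intervals therefore ignore differences in dispersion between genes. GC content and length trends were removed per library by local regression (span 0.5) for genes averaging 500 counts or more. Other alternatives were 3 scalings, no filter, DESeq2 1.42.0, limma-voom (limma 3.58.1), the replicate number as a block, and each library left out with the tested genes kept. The 2 extreme assignments of an added 100 were chosen after the values were seen. Scripts were tested on simulated data.

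All 10 genes, MELK, and in each pathway list up to 3 rising and 3 falling genes averaging 500 counts or more were named by rule. Members and lists were chosen with earlier results of these data known. 1 of 35 target genes did not match the table by symbol. Replicates within a group differed beyond sampling noise with the variance of the added number allowed for (chi-square per gene of 2.29 to 7.15, where noise alone gives about 1), so each was counted.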

Additional observations from a re-analysis of the deposited data

How the results depend on the processing

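The count of changed genes was 4683 (2297 higher, 2386 lower). It was 8973 with the added number modelled, and under the other alternatives it stayed within 1.5 times, with 3808 to 4064 when 1 library was left out. Library size alone turned the split to 2699 higher and 2073 lower. Of the 10 NF-κB genes 4 were called. The count was 2 with the replicate block (NFKB2 and NFKBIA), 2 with the GC content and length trend removed (NFKBIA and NFKBIB) and 2 to 3 when 1 library was left out, and it was 4 to 6 under the other alternatives, among them 6 with DESeq2. Library size alone also gave 4, but with NFKBIB and TNFAIP3 higher in place of RELA and RELB. Of all genes tested, 16.5% were called in the main fit, 23.1% with DESeq2 and 31.7% with the added number modelled. The fit of abundant genes called 77% of those it tested, and 76.5% were called with the GC content and length trend removed. The direction of REL turned to -0.74 with the added number modelled and, when 1 library was left out, ran from -0.67 without knockdown replicate 1 to 1.64. With the GC content and length trend removed, RELA turned to 0.02, RELB to 0.04 and NFKBIE to 0.03, and none of these passed. NFKBIA kept its call in 16 of 16 alternatives and NFKB2 in 15. Same-numbered libraries did not deviate together (correlations 0.1, -0.0125 and -0.0801), so the replicate number is not taken as a pairing. With the block 4182 genes passed. Values near the size of the added number limit REL and TNFAIP3.

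With 1 library left out, 3808 to 4064 of the 28303 genes tested were called, against 4683 (16.5%) with all libraries. In those fits 1 to 3 of 12 kinases and scaffolds were called (3 with all libraries) and 4 to 7 of 25 adaptors and ligases (10). The count was 4 to 5 of 18 atypical IκB genes and brakes (6). It was 2 to 4 of 18 ligands and receptors (4) and 9 to 11 of 32 targets (10).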

Other observations

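An antisense transcript that shares 95 exon bases with TNFAIP3 on the opposite strand, AL357060.1, held 105, 105 and 111 counts in control libraries, against 7, 9 and 10 in knockdown libraries. The edgeR log2 fold change was -3.57 ± 1.25 (SE, adjusted p = 0.102). With the added number modelled the estimate was -3.73, but its 95% interval ran from -4.45 to 0.79, because 3 control values just above 100 can also be read as a few reads plus 100 each. The transcript was picked after its values were seen. Its estimated change and that of TNFAIP3 had opposite signs, but neither passed the threshold in edgeR. The strand setting of the counting is not given in the sources used here. A lincRNA that touches RELA by 9 exon bases, AP001362.2, held 23, 142 and 35 counts in control libraries, against 116, 17 and 6 in knockdown libraries, where the modelled change was -1.41 (95% interval -2.22 to -0.81) and the edgeR value -0.53 ± 1.52 (adjusted p = 0.932).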
